A study of Mus musculus with 6 samples.

Results

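Igf2bp1, Igf2bp2, Igf2bp3, Lin28a, Lin28b, Hmga1, Hmga2 and Mycn are 8 growth genes known for their expression in fetal tissues, and they were taken by name from the 46983 genes measured in mouse aortic valves. Valves of wild type C57BL/6J mice were collected at postnatal day 2 (PND2), when the leaflets are still growing, and at 4 months of age, when they are mature. There were 3 RNA-seq libraries per age, each from the pooled valves of 5 to 6 mice, and no other treatment or genotype was involved. The study describes whole valves dissected with little of the adjoining heart muscle, and they were sequenced from stranded mRNA libraries. Cardiomyocyte markers were still abundant, with sums of 11000 to 11500 RPKM at PND2 and 5120 to 7800 at 4 months. The comparison of the ages asks how the transcript profile of the valve changes from postnatal growth to adult maintenance.

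The Igf2bp proteins bind mRNAs, among them that of the growth factor Igf2, and affect their stability, transport and translation. Lin28a and Lin28b block the maturation of the let-7 microRNAs, and mature let-7 in turn represses mRNAs that carry its target site, including those of Lin28, the Igf2bp genes and Hmga2. Hmga1 and Hmga2 are small proteins that bend AT-rich DNA, and Mycn is a transcription factor of the Myc family that drives growth and ribosome production. In many tissues these genes are active before birth and are turned down as the tissue matures.

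Values are RPKM, the reads on a gene divided by its exonic length and by the library total, so that levels of different genes can be compared. The library totals ran from 23810507 to 38994657, so that a single read per kb of exon corresponded to 0.0256 to 0.0420 RPKM. Reads summed over genes came to 2.31 to 2.36 times the totals, so the totals are not sums of the gene counts. The reason for this ratio was not tested. Mitochondrial genes took 5.44 to 9.60% of the reads. Xist, which is expressed in females, stood at 109 RPKM in PND2 replicate 1 and at 110 and 40.8 in 4-month replicates 2 and 3. It was at 0.154 or less in the other 3 libraries. High values were thus found at both ages but were not balanced between them, and the part of sex was not tested. The valve interstitial marker Vim (1360 ± 132 RPKM at PND2 and 1990 ± 351 at 4 months, SD, n = 3) was abundant at both ages.

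The let-7 target site links the members by sequence. All 9 mature let-7 family microRNAs in the RefSeq table (GRCm38.p6) carried the same seed, bases 2 to 8, shown here in capitals for 3 of them because these letters define the site looked for in the members.
mmu-let-7a-5p: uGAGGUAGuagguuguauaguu
mmu-let-7b-5p: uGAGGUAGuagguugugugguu
mmu-let-7e-5p: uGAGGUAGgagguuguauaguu

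The 3′ UTRs of the members' principal transcripts (GENCODE M21, GRCm38) were searched on the transcript strand for CTACCTC, the reverse complement of that seed. There were 17 such matches in 7 of the 8 members, and 9 of them were followed by an A. Over all 20262 protein-coding 3′ UTRs of at least 50 bases, 8.35% held a match and 0.148% held 3 or more. Hmga2 had 4 matches in 2977 bases, Lin28b 4 in 4445, Igf2bp1 4 in 6337 and Lin28a 2 in 2775. Igf2bp2, Igf2bp3 and Hmga1 had 1 each, and Mycn had none in 913 bases. Long 3′ UTRs hold more matches, so each member was set beside 3′ UTRs within 20% of its own length. Of those, 0.0490% had as many matches as Hmga2, 0.180% as many as Lin28b, 0.209% as many as Igf2bp1 and 2.00% as many as Lin28a. At least 1 match was held by 11.5% of 3′ UTRs as long as that of Igf2bp2, by 12.6% for Igf2bp3 and by 7.93% for Hmga1. The 4 matches of Hmga2 and 1 from each other member that had any are shown with the bases around them, with the match in capitals.
Hmga2 site 1, chr10:120364224-120364246, minus strand: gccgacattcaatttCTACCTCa
Hmga2 site 2, chr10:120362987-120363009, minus strand: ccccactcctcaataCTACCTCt
Hmga2 site 3, chr10:120362549-120362571, minus strand: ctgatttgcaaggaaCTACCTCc
Hmga2 site 4, chr10:120361691-120361713, minus strand: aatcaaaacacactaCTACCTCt
Lin28b site 1, chr10:45381022-45381044, minus strand: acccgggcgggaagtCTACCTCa
Lin28a site 1, chr4:134005189-134005211, minus strand: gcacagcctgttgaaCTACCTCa
Igf2bp1 site 1, chr11:95961778-95961800, minus strand: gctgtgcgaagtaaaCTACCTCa
Igf2bp2 site 1, chr16:22059473-22059495, minus strand: acacacaaataaaagCTACCTCa
Igf2bp3 site 1, chr6:49086787-49086809, minus strand: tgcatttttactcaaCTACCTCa
Hmga1 site 1, chr17:27563277-27563299, plus strand: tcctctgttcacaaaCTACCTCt

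The first Hmga2 match began at base 21 of its 3′ UTR and the first Lin28b match at base 36, close to the stop codons. A match is a description of these letters, and mature let-7 was not measured in these libraries.

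Every member had a lower mean at 4 months than at PND2, and the 3 libraries of 1 age did not overlap the 3 of the other for any of the 8. Of the 25903 genes tested, 29.9% had this pattern of lower values without overlap. Lin28a is not among the genes tested. Igf2bp1 and Lin28b entered them through their PND2 libraries alone, so the pattern was fixed for both. The members spanned a wide range of levels. At PND2, Hmga1 was highest at 21.0 ± 1.47 RPKM (SD, n = 3), followed by Igf2bp2 at 18.0 ± 1.43, Igf2bp3 at 10.1 ± 0.648, Igf2bp1 at 2.66 ± 0.273 and Mycn at 2.54 ± 0.104. Hmga2 at 0.524 ± 0.0555, Lin28b at 0.267 ± 0.0961 and Lin28a at 0.0336 ± 0.00768 were low. This order holds for reads over each gene's whole exonic length. On the exons of the principal transcript alone, Igf2bp2 at 32.2 ± 2.42 RPKM lay above Hmga1 at 21.4 ± 1.51. Neighbors in the first order did not overlap except Igf2bp1 and Mycn. At 4 months the order was Hmga1 (15.7 ± 1.12), Igf2bp2 (1.89 ± 0.170), Mycn (0.562 ± 0.0908), Igf2bp3 (0.437 ± 0.116), Hmga2 (0.109 ± 0.0304), Igf2bp1 (0.0542 ± 0.0434), Lin28b (0.00970 ± 0.00960) and Lin28a, which had no reads. The libraries of Hmga1 and Igf2bp2 stood apart from those of all others, while Mycn overlapped Igf2bp3, Hmga2 overlapped Igf2bp1, Igf2bp1 overlapped Lin28b, and Lin28b had no reads in 1 library. Among protein-coding genes, Igf2bp2 ranked above 75.0% at PND2 and above 42.5% at 4 months, whereas Hmga1 moved only from above 77.9% to above 72.9%.

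**Figure D1:**
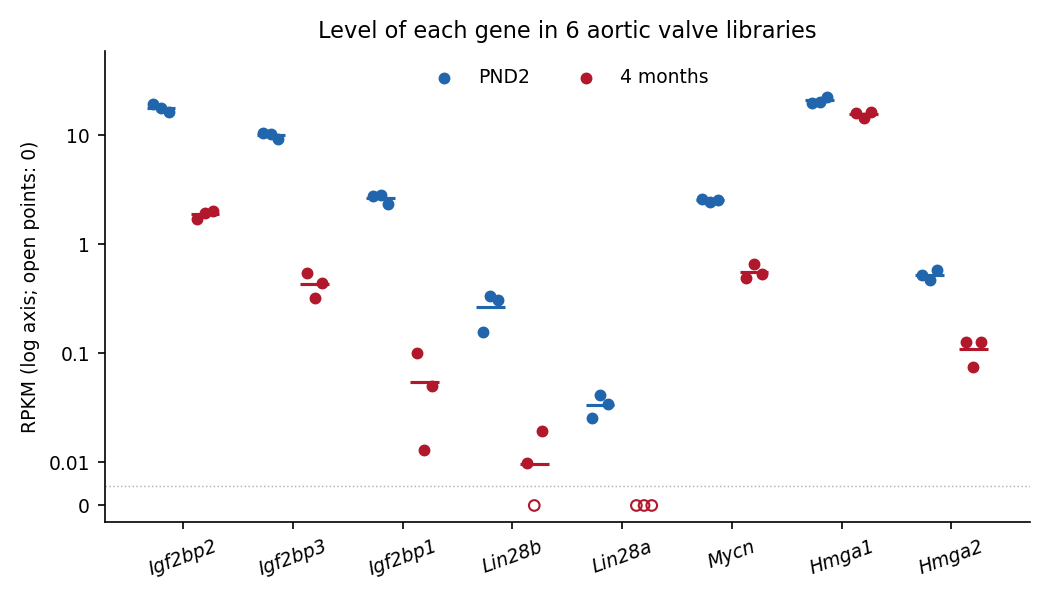
RPKM of each of the 8 genes (log axis) in the 3 PND2 (blue) and 3 4-month (red) libraries, with horizontal bars at the means and open points for libraries with no reads. The blue points lie above the red ones for every gene, with a small gap for Hmga1 (means 21.0 and 15.7) and a wide one for Igf2bp1 (2.66 and 0.0542).

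The ages were compared with limma on log2(RPKM + 0.1) over all 25903 genes with at least 0.1 RPKM in 3 libraries, with Benjamini-Hochberg adjustment, and a gene was called at an adjusted p under 0.05. On this scale the fold change of a gene at low RPKM is understated. Of the 8 members, 7 passed the filter and all 7 were called lower at 4 months, against 21.1% of all genes tested. None was called higher (background 14.7%). With a fold change over 2 required as well, 6 members remained lower, all but Hmga1 (8.47% of all genes), and none higher (8.72%). Igf2bp1 and Lin28b passed the filter through their PND2 libraries alone and so had to be higher there, which is why the count of members is given as a description. Scaling each library by its median gene shifted the median of all genes from -0.14 to -0.02, and the calls over all genes from 5463 lower and 3810 higher to 4129 lower and 4601 higher. Under that scaling 6 members were called lower, Hmga1 being the exception. In whole tissue, fewer cells that express a gene and less RNA per cell cannot be told apart.

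**Figure D2:**
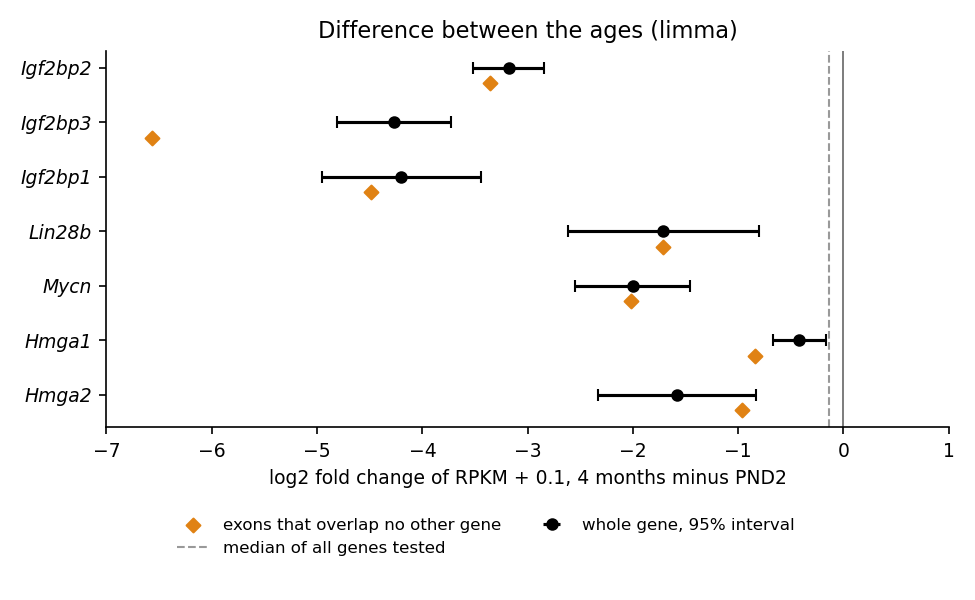
Difference between the ages for the 7 genes tested, as log2 fold change of RPKM + 0.1 (4 months minus PND2), with the limma estimate and its 95% interval for the whole gene in black. The dashed line marks the median of all genes tested (-0.138), and orange diamonds give the estimate from exons that overlap no other gene, which lies far lower for Igf2bp3 (-6.57) and nearer to 0 for Hmga2 (-0.96).

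On the log2(RPKM + 0.1) scale, the 3 Igf2bp genes had the largest fold changes among the members. Igf2bp2 (chr16:22059009-22163299, minus strand; all coordinates are mm10) is the family member that stays active in many adult tissues. It stood at 19.4, 17.9 and 16.6 RPKM in the PND2 libraries and at 1.70, 1.96 and 2.02 at 4 months. Even the lowest PND2 library was far above the highest 4-month one. Igf2bp2 fell by 3.18 on the log2 scale (SE 0.14, limma adjusted p = 3.00e-05), and 0.610% of the genes tested had a more negative fold change. Its transcript shares no exon with another gene, and all 16 exons were lower at 4 months, by 7.2- to 28.3-fold.

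Igf2bp3 (chr6:49085223-49214957, minus strand), found mostly in fetal tissue and tumors, was at 10.6, 10.4 and 9.37 RPKM at PND2 and at 0.551, 0.319 and 0.440 at 4 months. The groups were well apart, and Igf2bp3 fell by 4.27 on the log2 scale (SE 0.23, limma adjusted p = 4.53e-05). Its last exon, which holds the 3′ UTR and the let-7 match shown above, shares 1529 bases with Malsu1, a mitochondrial ribosome assembly gene on the opposite strand. At 4 months, 216 of the 233 reads on its transcript (92.7%) lay on that exon, against 53.7% at PND2. The other 14 exons, free of any overlap, went from 3668 reads at PND2 to 17 at 4 months. Their level was 17.5 ± 0.927 RPKM at PND2 and 0.0857 ± 0.0249 at 4 months (SD, n = 3), a 204-fold difference, compared with 18.5-fold on the last exon. Restricted to those exons, Igf2bp3 fell by 6.57 on the log2 scale. The Malsu1 exon that reaches into Igf2bp3 was 5.62-fold higher at PND2, while the other exons listed for Malsu1 were 1.08- to 2.03-fold higher. Whether the counting used the strand is not given in the sources used here, so reads of the 2 genes on the shared stretch cannot be told apart, and the gene-level fold change of Malsu1 (15.8 ± 1.46 to 5.45 ± 0.841 RPKM) is as uncertain as that of Igf2bp3.

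Igf2bp1 (chr11:95957163-96005940, minus strand), the founding member of the family, was at 2.78, 2.85 and 2.35 RPKM at PND2 and at 0.0995, 0.0130 and 0.05 at 4 months. The 4-month values rest on 36, 3 and 14 reads, against 665 to 1051 at PND2. The groups did not overlap, and Igf2bp1 fell by 4.2 on the log2 scale (SE 0.32, limma adjusted p = 1.81e-04). The last exon, most of it 3′ UTR, held 82.6% of the PND2 reads on the transcript. At 4 months 47 of 51 reads lay there, and the other 14 exons went from 442 reads to 4. The microRNA gene Mir3063 lies within that exon on the same strand (92 bases), and 43 bases of the first exon are shared with the antisense gene Gm29202.

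**Figure D3:**
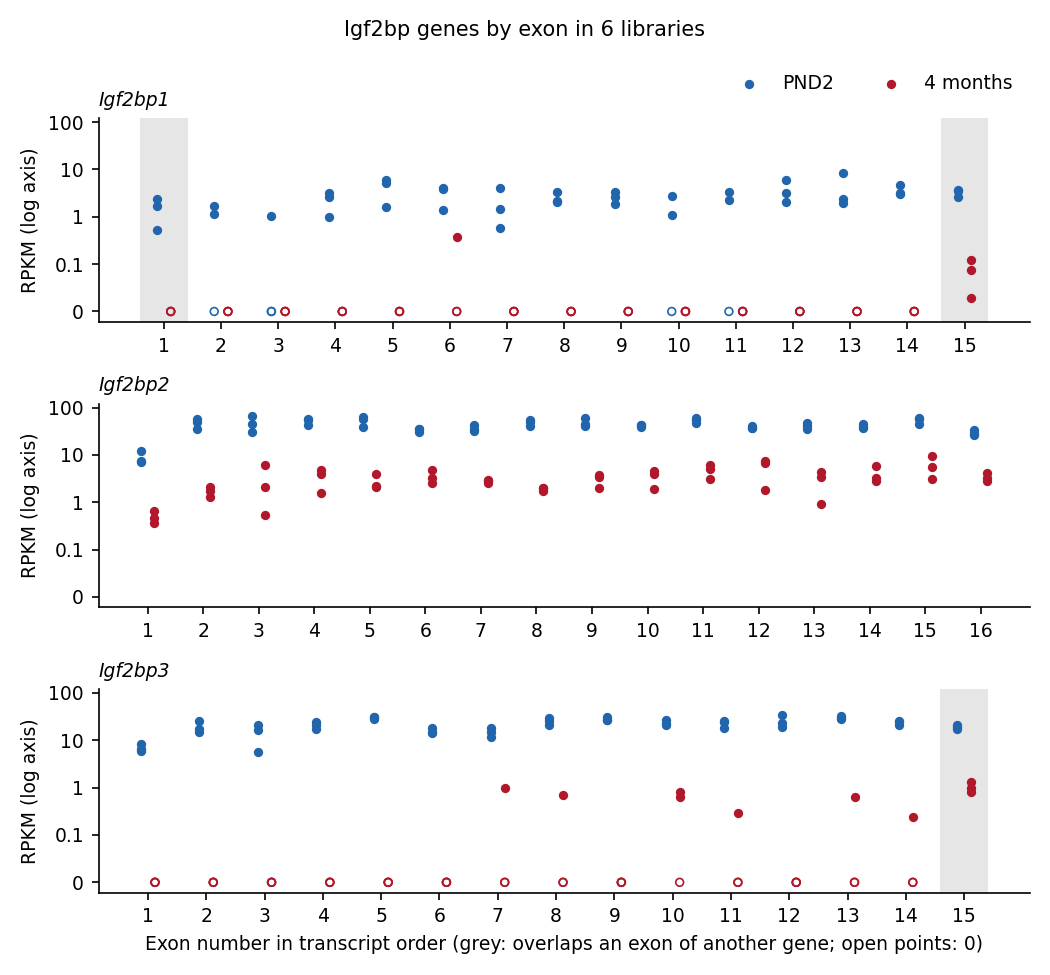
RPKM of each exon of Igf2bp1, Igf2bp2 and Igf2bp3 (log axis) against exon number in transcript order, 1 point per library (PND2 blue, 4 months red), with open points at 0 and grey bands over exons that overlap another gene. Igf2bp2 kept reads on all 16 exons at 4 months, whereas the 4-month reads of Igf2bp3 lay mostly on exon 15, which overlaps Malsu1 (216 of 233).

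Summed over the family, Igf2bp RPKM was 30.8 ± 2.28 at PND2 and 2.38 ± 0.110 at 4 months (SD, n = 3), a 12.9-fold difference. The family was also made up differently. Igf2bp2 held 59.3, 57.5 and 58.6% of it in the PND2 libraries and 72.3, 85.5 and 80.4% in the 4-month libraries. Its share was higher in each of the 3 adult libraries, by 21.0 percentage points on average (exact permutation test, 2-sided p = 0.1, the smallest that 3 libraries against 3 allow). The share of Igf2bp3 went from 32.9 ± 0.575% to 18.3 ± 4.83% and that of Igf2bp1 from 8.64 ± 0.447% to 2.27 ± 1.85%. On exons without overlap, the mean share of Igf2bp2 was 61.5% at PND2 and 96.3% at 4 months, and that of Igf2bp3 was 33.4% and 2.81%.

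**Figure D4:**
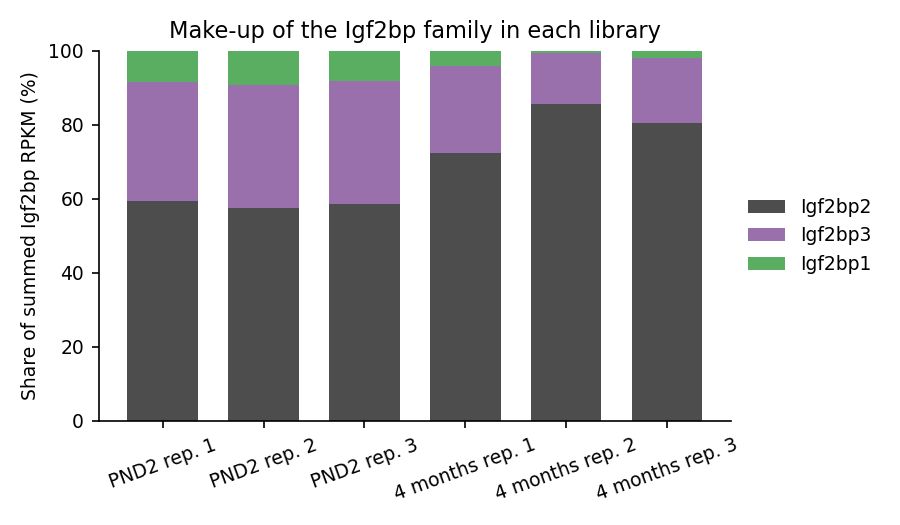
Percentage of the summed Igf2bp RPKM held by Igf2bp2, Igf2bp3 and Igf2bp1 in each of the 6 libraries, as stacked bars that add to 100%. Igf2bp2 takes 57.5 to 59.3% in the PND2 libraries and 72.3 to 85.5% in the 4-month libraries.

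The Lin28 genes were near the limit of detection. Lin28b (chr10:45376620-45470201, minus strand), which acts mainly in the nucleus on let-7 precursors, had 33, 55 and 49 reads in the PND2 libraries and 2, 0 and 3 at 4 months. These stand for 0.157, 0.334 and 0.310 RPKM at PND2 and 0.00991, 0 and 0.0192 at 4 months. The groups did not overlap, and reads were found on all 5 exons at PND2 and only on the last at 4 months. Over the pooled reads the difference was 25.0-fold (95% exact interval 10.5 to 78.2, which covers counting error only). The limma estimate, damped by the added 0.1, was a log2 fold change of -1.71 (SE 0.39, adjusted p = 0.0134). That call was lost without PND2 replicate 3 (log2 fold change -1.61, limma adjusted p = 0.0536). Lin28a (chr4:134003330-134018841, minus strand), the form used to reprogram cells, had 4, 5 and 4 reads at PND2, all on its last exon, and none in any 4-month library. It did not pass the filter. With 3 reads over the group as the limit for a count of 0, Lin28a was at least 3.95-fold lower at 4 months. That limit takes the 13 PND2 reads as exact and leaves out their counting error.

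Mycn (chr12:12936096-12941914, minus strand) was at 2.63, 2.43 and 2.56 RPKM at PND2 and at 0.488, 0.663 and 0.535 at 4 months. The PND2 libraries lay close together and well above the adult ones. Mycn fell by 2.00 on the log2 scale (SE 0.23, limma adjusted p = 8.94e-04), and 2.83% of the genes tested had a more negative fold change. It shares no exon with another gene. The last of its 3 exons was 4.31-fold higher at PND2, and the 2 before it together 4.96-fold. Its close relative Myc was at 11.8 ± 2.18 RPKM at PND2 and 5.21 ± 1.12 at 4 months (log2 fold change -1.17, SE 0.21, limma adjusted p = 0.00529). Mycl, the third family gene, was low at both ages (0.431 ± 0.282 and 0.300 ± 0.0978 RPKM) and its ages overlapped. The 2 Myc genes that were called differed in level, Mycn being lower than Myc in every library.

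Among the HMGA genes, Hmga1 had the highest gene-level RPKM of the 8 members at both ages and the smallest limma fold change. Hmga1 (chr17:27556620-27563674, plus strand) was at 19.8, 20.5 and 22.6 RPKM at PND2 and at 16.1, 14.4 and 16.5 at 4 months. The 2 ages did not overlap, but the gap between the lowest PND2 and the highest 4-month library was small, and Hmga1 fell by 0.42 on the log2 scale (SE 0.11, limma adjusted p = 0.0207). This call was lost under 7 of the 18 alternatives, with limma adjusted p = 0.0819 without PND2 replicate 3, 0.0631 without 4-month replicate 2 and 0.0537 without PND2 replicate 2. Its last exon held 87.8% of the PND2 reads on the transcript and overlaps AI413582 on the opposite strand (100 shared bases). The exons before it overlap no other gene. The first exon stood at 3.34, 6.57 and 4.97 RPKM at PND2 and at 3.29, 1.05 and 2.86 at 4 months. This was a 2.07-fold difference of the means with almost no gap between the ages (exact permutation test, 2-sided p = 0.1). Of the 5 exons, 4 had a lower mean at 4 months. Exon 4, with 3 reads at PND2 and 10 at 4 months, went the other way.

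Hmga2 (chr10:120361275-120476469, minus strand), the HMGA gene most restricted to embryonic tissue, was at 0.523, 0.469 and 0.580 RPKM at PND2 and at 0.127, 0.0744 and 0.128 at 4 months. The ages were clearly apart, and Hmga2 fell by 1.58 on the log2 scale (SE 0.32, limma adjusted p = 0.00838). Most of these reads lay on the last exon, which carries the 4 let-7 matches. It held 324 of 346 reads at PND2 and 47 of 68 at 4 months, and was 6.03-fold higher at PND2. The exons before it had 10, 8 and 4 reads at PND2 and 21, 0 and 0 at 4 months, so that the 2 ages overlapped there (limma log2 fold change -0.96, adjusted p = 0.429). The 21 reads of 4-month replicate 1 were all on the first exon. The last exon shares 140 bases with 1700006J14Rik on the opposite strand. Hmga2 made up 2.44 ± 0.179% of the summed Hmga1 and Hmga2 RPKM at PND2 and 0.687 ± 0.149% at 4 months (exact permutation test, 2-sided p = 0.1). On exons without overlap the mean shares were 4.32 and 4.21%. The 4.21% rests on the 21 reads of 4-month replicate 1 alone, as replicates 2 and 3 had 0 Hmga2 reads there. Those exons held only 6.36% of the reads on the Hmga2 transcript at PND2.

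The genes whose profile over the 6 libraries was nearest to each member with at least 1 RPKM were found by Euclidean distance of log2(RPKM + 0.1) around each gene's mean, among 14152 protein-coding genes. Igf2bp1 and Igf2bp3 were each other's nearest (distance 0.186), on whole-gene values. Of the 4-month reads on the Igf2bp3 transcript, 92.7% lay on the exon shared with Malsu1. Without that exon Igf2bp3 fell by 6.57 on the log2 scale, against 4.27 for the whole gene. The 4-month values of Igf2bp1 all lay under the added 0.1, so this closeness depends on the overlap and on the scale. Next to Igf2bp1 came Grid1, a glutamate receptor subunit (2.84 ± 0.303 to 0.0636 ± 0.0667 RPKM), and Colec10, a collectin (4.40 ± 0.583 to 0.0907 ± 0.0402). Colec10 and the imprinted growth gene Mest (115 ± 17.8 to 5.22 ± 0.678 RPKM) followed for Igf2bp3, and 23.1% of the exonic bases of Mest are shared with Copg2 on the opposite strand. The nearest genes to Igf2bp2 were Zfp57 (27.6 ± 3.54 to 2.99 ± 0.0652), a zinc finger protein that maintains imprints, Aunip (1.63 ± 0.323 to 0.0791 ± 0.0254) and Tmeff1 (13.6 ± 0.525 to 1.57 ± 0.206). Mycn lay nearest to Gm3752, Eml4, a microtubule-binding gene (27.0 ± 0.852 to 7.47 ± 0.368), and Adamts9, a protease of the versican matrix (9.12 ± 0.380 to 2.53 ± 0.278). Cdipt, Elp5 and Wrb were nearest to Hmga1, with fold changes of -0.40 to -0.45 on the log2 scale. With 6 libraries in 2 age groups, these distances are a description.

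RNAs known to be bound by Igf2bp proteins moved in both directions. Of 10 tested, 4 were called lower at 4 months, 3 higher and 3 not, with a median fold change of 0.24 on the log2 scale against -0.138 over all genes. The shares called over all genes were 21.1% lower and 14.7% higher. The largest falls were those of Igf2 and H19, the neighboring imprinted genes for a fetal growth factor and a noncoding RNA. Igf2 stood at 685, 651 and 789 RPKM at PND2 and at 18.2, 19 and 12.5 at 4 months and fell by 5.43 on the log2 scale (SE 0.17, limma adjusted p = 1.20e-05). H19 was at 2280, 2140 and 2850 RPKM and then at 32.8, 44.7 and 15.4, and fell by 6.4 on the log2 scale (SE 0.36, limma adjusted p = 5.18e-05). Both were far apart between the ages in every library. In the other direction, the Hedgehog effector Gli1 rose from 8.98 ± 1.83 to 23.5 ± 7.35 RPKM (limma adjusted p = 0.00525). The laminin gene Lamb2 rose from 138 ± 23.9 to 338 ± 38.3 (limma adjusted p = 8.38e-04).

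Of 21 genes tested that process microRNAs and let-7, 8 were called lower, 2 higher and 11 not, with a median of -0.33 on the log2 scale. Over all genes, 21.1% were called lower and 14.7% higher. The 10 calls became 5 without PND2 replicate 3, and 6 without PND2 replicate 2, 4-month replicate 1 or 4-month replicate 3. Zcchc11, the uridylyl transferase that Lin28 recruits to let-7 precursors, was at 17.0, 17.1 and 17.5 RPKM at PND2 and at 8.88, 8.86 and 7.38 at 4 months, without overlap (log2 fold change -1.04, SE 0.12, limma adjusted p = 7.95e-04). Dgcr8, the partner of Drosha, fell from 14.7 ± 1.59 to 8.11 ± 0.758 RPKM with a limma adjusted p = 0.00304, and 11.3% of its exonic bases are shared with Trmt2a on the opposite strand. Hnrnpa1, which binds some let-7 precursors, fell from 187 ± 16.9 to 103 ± 7.17 (limma adjusted p = 0.00108). The RNA helicase gene Ddx5 rose from 261 ± 17.9 to 389 ± 5.53 (limma adjusted p = 0.00354) and Tnrc6c, a scaffold of the silencing complex, from 9.85 ± 0.750 to 13.0 ± 0.699 (limma adjusted p = 0.0319). The Tnrc6c call was lost when any 1 of the 6 libraries was left out. Dis3l2, the nuclease that degrades uridylated let-7 precursors, was at 3.43 ± 0.130 and 2.69 ± 0.364 RPKM and was not called (limma adjusted p = 0.177).

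The let-7 genes themselves were barely measured, since mature microRNAs are too short for these libraries and a value at such a locus counts reads of longer transcripts. Of 14 let-7 family loci, 10 were listed and 4 passed the filter. Mirlet7i alone was called lower, on 3, 3 and 7 reads at PND2 and 2, 1 and 1 at 4 months (limma adjusted p = 0.0461), and the call was lost under 14 of 17 alternatives.

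Of 25 known let-7 targets outside the 8 members, 12 were called lower, 3 higher and 10 not, with a median of -0.52 on the log2 scale. Among all genes tested, 21.1% were called lower and 14.7% higher, with a median of -0.138. Gdf6, a bone morphogenetic protein ligand, was at 7.03, 16.0 and 12.6 RPKM at PND2 and at 2.02, 1.55 and 1.20 at 4 months, and fell by 2.77 on the log2 scale (SE 0.33, limma adjusted p = 0.001). Its PND2 libraries varied more than its adult ones but did not overlap them. The zinc finger gene Plag1, an activator of Igf2, fell from 3.40 ± 0.0809 to 0.925 ± 0.254 RPKM at a limma adjusted p = 0.00203. Irs2, an adaptor of the insulin receptor, rose from 4.52 ± 0.268 to 11.5 ± 1.24 (limma adjusted p = 5.55e-04). The receptor genes Acvr1c (0.126 ± 0.0454 to 1.11 ± 0.990, limma adjusted p = 0.0245) and Tgfbr1 (32.0 ± 1.94 to 41.2 ± 1.96, limma adjusted p = 0.0185) also rose, but Acvr1c lost its call without any 1 of the PND2 libraries and Tgfbr1 without PND2 replicate 2, PND2 replicate 3 or 4-month replicate 3.

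Of the other high mobility group genes, 5 of 9 tested were called lower and none higher, with a median of -0.54. The shares over all genes were 21.1% lower and 14.7% higher, and the median was -0.138. Hmgb2, which is high in cycling cells, fell from 24.0 ± 3.56 to 6.2 ± 1.62 RPKM (limma adjusted p = 5.17e-04). Hmgb3 fell from 37.0 ± 1.54 to 11.0 ± 2.79 (limma adjusted p = 4.54e-04) and the nucleosome-binding gene Hmgn2 from 113 ± 8.94 to 42.0 ± 2.81 (limma adjusted p = 1.15e-04). In the Myc network, 6 of 19 were called lower, 4 higher and 9 not, with a median of -0.26, against 21.1% lower and 14.7% higher over all genes. Leaving out PND2 replicate 2, PND2 replicate 3 or 4-month replicate 3 gave 6 calls in place of 10. Mxd3, a Max partner, fell from 8.65 ± 2.09 to 3.28 ± 0.497 RPKM at a limma adjusted p = 0.00381, and Npm1, a nucleolar Myc target, from 120 ± 17.6 to 69.1 ± 6.24 (limma adjusted p = 0.00331). The glucose-responsive factor Mlxipl rose from 1.16 ± 0.140 to 5.83 ± 1.93 (limma adjusted p = 0.00103), and Mxd1, which competes with Myc for Max, from 2.97 ± 0.629 to 5.17 ± 0.754 (limma adjusted p = 0.0232). Mlx, the partner of Mlxipl, rose from 21.5 ± 1.08 to 27.4 ± 1.25 (limma adjusted p = 0.0244), and 19.3% of its exonic bases are shared with Psmc3ip on the opposite strand. The calls of Mxd1 and Mlx were both lost without PND2 replicate 2, PND2 replicate 3 or 4-month replicate 3, and that of Mlx also without 4-month replicate 1 or 2.

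**Figure D5:**
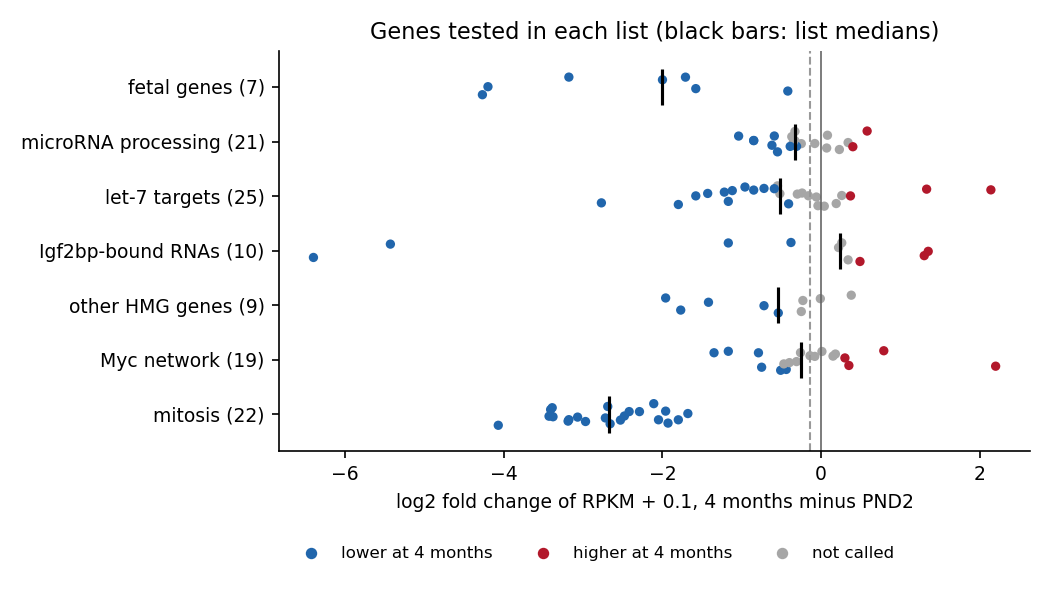
Log2 fold change of RPKM + 0.1 (4 months minus PND2) for each gene tested in the 8 fetal genes and in 6 related gene lists, 1 point per gene, blue where called lower, red where called higher and grey where not called, with black bars at the medians and the dashed line at the median of all genes (-0.138). The mitosis genes all lie to the left (median -2.67), while the Igf2bp-bound RNAs spread to both sides (median 0.24).

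Cell cycle genes and the cell types of the valve also differed between the ages. The counts below stand beside 21.1% of all genes tested called lower and 14.7% called higher. All 22 mitosis genes were called lower at 4 months, with a summed level of 121 to 219 RPKM at PND2 and 26.1 to 29.2 at 4 months, and Cdk1, Ccnb2 and Bub1 fell by 4.07, 3.43 and 3.41 on the log2 scale. Endothelial markers (6 of 6 lower) summed to 375 to 507 RPKM at PND2 and 211 to 217 at 4 months. Neutrophil markers (5 of 5 lower) summed to 25.0 to 31.9 and 0.578 to 1.03 RPKM, with Ngp at 0 in every adult library. Cardiomyocyte markers (3 of 8 lower) summed to 11000 to 11500 and 5120 to 7800, so heart muscle RNA was abundant at both ages. Smooth muscle markers (5 of 5 higher) summed to 7130 to 8230 and 16400 to 27400. Interstitial markers split into 3 lower (Postn, Scx and Vcan) and 2 higher (Dcn and Lum) of 7, with sums of 3860 to 4090 and 6450 to 8280. Macrophage markers had 1 lower and 3 higher of 5 (77.1 to 101 and 136 to 171), adipocyte markers 3 higher of 4 (63.7 to 147 and 121 to 431), and Schwann cell markers 2 higher of 4 (10.3 to 21.9 and 37.2 to 45.1). None of the 5 erythroid markers tested was called by limma (1860 to 2600 and 750 to 2160). The part of cycling cells and of each of these cell types in the members' differences was not tested.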

How the data were processed

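Reads of 6 aortic valve libraries, 3 per age, were filtered, trimmed and aligned to mm10 with TopHat2 2.1.0 by the authors, and counted per Ensembl gene and exon with easyRNASeq. The authors deposited RPKM values, in which low values had been left as they were. Whether strand was used in counting is not given in the sources used here. Whole reads were recovered from RPKM, length and library total for 100% of gene values within 0.01 reads. Groups came from the sample labels, and libraries were taken as independent pools.

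Genes with at least 0.1 RPKM in 3 libraries were compared on the scale of log2(RPKM + 0.1). The comparison used limma 3.58.1 (R 4.3.3) with its trended variance prior. Its 2-sided p-values were adjusted by Benjamini-Hochberg over all genes tested. Single values were compared with an exact permutation test. Intervals from reads cover counting error only, and the limit for Lin28a covers only that of its 4-month count. Exons were matched to GENCODE M21 principal transcripts, and exon values are descriptions. Sequences came from RefSeq (GRCm38.p6) and GENCODE M21. Of these steps, only the limma comparison was tested on simulated data. Tables used Python 3.11.15 with pandas 2.3.3, exact tests scipy 1.17.1, and figures matplotlib 3.10.9.

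The members, lists and tests were chosen with earlier results of these data known. From each list, up to 3 genes called lower and 3 called higher with the largest fold change and at least 1 RPKM at either age are named. Igf2, H19, Myc, Mycl, Dis3l2 and the 3 genes nearest to each member are named as well. A few genes that this rule picks are not reported here. Other genes are named as overlapping genes, or as cell type markers. Alternatives were pseudocounts of 1 and 0.01, no filter or at least 1 RPKM, no trend, an unequal-variance test per gene as in the study, median scaling, quantile normalization, a floor of 10 reads, limma-voom on the recovered reads, a replicate block, a fold over 2 and each library left out. Exons without overlap were added for the members' fold changes after the data were seen.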

Additional observations from a re-analysis of the deposited data

How the results depend on the processing

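All 7 members kept their direction under every alternative run for them. As their ages did not overlap, omitting a library or changing the pseudocount, filter, trend, test or block could not reverse it. Of the members' values under the alternatives, 114 stayed on the same side of the threshold while 10 did not. The count called lower was 5 to 7 when 1 library was left out. Hmga1 lost its call under the unequal-variance test (adjusted p = 0.0523), median scaling (-0.30, limma adjusted p = 0.0501) and non-overlapping exons (-0.84, limma adjusted p = 0.0761), besides the libraries named above, and Lin28b under the unequal-variance test (adjusted p = 0.0675). The fold change of Igf2bp1 ran from -5.82 with voom to -1.79 with a pseudocount of 1, and that of Lin28b from -4.54 to -0.32, since both are low at 4 months. Replicate numbers did not pair the libraries: same-numbered libraries had correlations of -0.16 to 0.0439, and 0 of 6 correlated best with its own number. With a replicate block, 6 members were called, Hmga1 not (limma adjusted p = 0.0528), the let-7 loci gave 0 calls, and the calls over all genes were 4163 lower and 3004 higher. Within replicate numbers the mean difference in the Igf2bp2 share is the same 21.0 points by construction, so it gives no further check. The let-7 loci also gave 0 calls with a pseudocount of 1, no filter, at least 1 RPKM, no trend, both scalings, a floor of 10 reads, voom and the unequal-variance test. Under that last test calls in either direction were 4 for microRNA processing, 7 for let-7 targets, 4 for Igf2bp-bound RNAs, 3 for high mobility group genes, 3 for the Myc network and, over all genes, 1942 lower and 1466 higher. With a fold over 2, at an adjusted p under 0.05 or 0.1, they were 1 for microRNA processing, 9 for let-7 targets, 3 for high mobility group genes and 3 for the Myc network. Leaving out 1 library gave 5 to 12 calls for microRNA processing (5 without PND2 replicate 3, and 6 without PND2 replicate 2, 4-month replicate 1 or 4-month replicate 3), 6 to 13 for the Myc network (lowest without PND2 replicate 2, PND2 replicate 3 or 4-month replicate 3), 0 to 1 for the let-7 loci, and 3503 genes lower without PND2 replicate 3. Mirlet7i turned to 0.14 with a floor of 10 reads and Mycl to 0.09 without PND2 replicate 1 (range -0.63 to 0.09 over the left-out libraries), neither called. The cause of these changes was not tested. Depth limits the members with few reads at 4 months, Lin28a, Lin28b, Igf2bp1 and Hmga2.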

Other observations

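Among genes outside the 8 members, the share called lower at 4 months was set beside the number of let-7 seed matches in the 3′ UTR. Of 13978 genes with no match, 23.5% were called lower and 19.1% higher. With 1 match the shares were 25.4 and 18.5% of 1238 genes, and with 2 matches 24.5 and 15.0% of 147 genes. Of the 23 genes with 3 or more, 9 (39.1%) were called lower and 1 (4.35%) higher, with a median of -0.31 on the log2 scale against -0.09 for genes without a match. Their 3′ UTRs were also longer, with a median of 4470 bases against 913, and no test was made of these shares. Nr6a1, with the most matches of any gene (8), was not called (-0.55, limma adjusted p = 0.165), nor was Nudt12 with 7 (0.74, limma adjusted p = 0.0606). Trim6 with 6 was called lower (-1.09, limma adjusted p = 0.0296), and of those with 4, as in Hmga2, Hic2 was called lower (-1.49, limma adjusted p = 0.00303) and Ptafr higher (1.68, limma adjusted p = 0.00229). The other non-members with 4 were Zbtb37 (-0.31, limma adjusted p = 0.187) and D10Wsu102e (-0.18, limma adjusted p = 0.385), neither called, and Trim71, which did not pass the filter.

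The promoters of the members in the RefSeq table (GRCm38.p6, 250 bases before to 50 after the start) were searched on both strands, except that of Igf2bp1, which was not analysed here, for 4 motifs, none of which contains another. The E-box CACGTG was found for Igf2bp3 and Lin28b, and in 7.15% of all 32851 promoters. The CCAAT box was found for the same pair, and in 37.4% of all. The GC box GGGCGG was found for Hmga1, Hmga2, Igf2bp2, Lin28a and Mycn, and in 35.7% of all. TATAAA was found for none of the members searched, and in 13.6% of all. These matches are a description of the letters in these windows.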
